A study of Mus musculus with 84 samples.

Results

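Dual-specificity phosphatases of the MAP kinases and the Sprouty and Spred proteins were followed as a group of 10 genes chosen by name: the phosphatases Dusp1, Dusp3, Dusp4, Dusp5, Dusp6 and Dusp14, and the inhibitors Spry2, Spry4, Spred1 and Spred2. Each symbol matched 1 of the 55401 gene IDs in the count files, and 9 of the 10 passed the filter on low counts, which kept 17941 genes; Spry4 did not. The RNA came from NeuN-positive nuclei (NeuN is a protein of neuronal nuclei) sorted from the frontal cortex of 129S6/SvEvTac mice aged 12 weeks. The vehicle group was given vehicle alone, and the others were sampled 24 h, 48 h or 7 days after an injection of DOI (2,5-dimethoxy-4-iodoamphetamine), a psychedelic that activates the serotonin 2A receptor. There were 4 mice in each group and 2 libraries from each mouse, whose counts were summed, so that the mouse was the replicate. The labels give neither the dose nor when after injection the vehicle mice were sampled.

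In the MAP kinase pathway a receptor at the cell surface switches on RAS, and RAF, MEK and ERK are then phosphorylated in turn. Dual-specificity phosphatases remove phosphate from both the threonine and the tyrosine that activate a MAP kinase, and Sprouty and Spred proteins hold back the steps between the receptor and RAF. Several of these genes are themselves transcribed when the pathway is active, which makes them negative feedback regulators, and in cortical neurons some of them respond to synaptic activity.

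Windows before the start of transcription are shown for Spry2 and Dusp3, which rose most, and for Dusp1 and Dusp6, which had the largest falls among the 3 phosphatases lower at 48 h, because these moved in opposite directions. They are RefSeq sequence on GRCm38.p6, read on the strand of the gene from 5′ to 3′, and bases in an exon of the counted annotation were left out. Windows were given for 8 members; Dusp4 and Spry4 had none. Capitals mark the cAMP response element TGACGTCA and its core TGACG in Dusp1, and GGGCGG, the GC box, in Dusp3. Dusp1 has GC boxes as well, among them those 150 to 145 and 135 to 130 bases before the start, which are not in capitals. Spry2 is on chr14:105896820-105897069, Dusp3 on chr11:101984800-101985041 and Dusp1 on chr17:26508520-26508722, all on the minus strand, and Dusp6 is on chr10:99262981-99263230, on the plus strand. The Dusp1 and Dusp3 windows lie inside the spans over which these genes were counted, given below. For them the start used is therefore not the outermost start of the counted gene.
Spry2: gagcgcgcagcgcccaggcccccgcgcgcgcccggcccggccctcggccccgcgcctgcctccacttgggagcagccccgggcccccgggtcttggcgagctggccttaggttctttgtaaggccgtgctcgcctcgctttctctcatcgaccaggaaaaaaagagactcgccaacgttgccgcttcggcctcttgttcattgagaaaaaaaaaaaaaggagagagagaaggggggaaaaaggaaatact
Dusp3: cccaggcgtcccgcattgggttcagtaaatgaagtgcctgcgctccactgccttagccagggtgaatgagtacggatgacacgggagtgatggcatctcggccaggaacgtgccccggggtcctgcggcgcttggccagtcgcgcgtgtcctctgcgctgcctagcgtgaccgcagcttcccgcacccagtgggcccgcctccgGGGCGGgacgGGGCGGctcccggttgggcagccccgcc
Dusp1: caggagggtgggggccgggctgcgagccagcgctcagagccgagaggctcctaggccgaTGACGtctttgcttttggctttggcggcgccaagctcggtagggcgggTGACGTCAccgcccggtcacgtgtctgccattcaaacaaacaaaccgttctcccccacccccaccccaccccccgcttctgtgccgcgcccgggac
Dusp6: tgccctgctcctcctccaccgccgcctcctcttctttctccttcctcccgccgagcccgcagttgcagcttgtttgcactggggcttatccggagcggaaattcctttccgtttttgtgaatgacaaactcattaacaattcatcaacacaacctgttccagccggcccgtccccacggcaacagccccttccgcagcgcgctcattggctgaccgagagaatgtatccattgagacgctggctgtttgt

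Motifs were searched on both strands of the 250 bases before each start. TGACGTCA was found in 1 of the 8 members, Dusp1, where it lies 143 to 136 bases before the start, and in 1.55% of all 32851 windows of that length. The core TGACG, which the full element contains, was found in Dusp1, Dusp5 and Spred2 and in 17.8% of all windows. The CArG box, the core of the serum response element, was found in Dusp5 and in 1.47% of windows. TGANTCA, the AP-1 site, was found in 0 of the 8 members and in 6.75% of windows. The GC box GGGCGG was found in 6 of the 8 members, all but Dusp6 and Spry2, and in 32.7% of windows. A match of letters is only a description of these windows.

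Some properties of the libraries differed between the groups. Total counts per mouse were 9151680 to 11517452 in vehicle mice and 5834248 to 8090559 at 24 h and 48 h. A level of 3 counts, taken as the floor, was 0.254 to 0.502 CPM (the count of a gene relative to the scaled total of its mouse, with TMM factors). The sort was checked with Rbfox3, the gene of NeuN, which was at 46.3 to 68.1 CPM in vehicle mice and 88.4 to 115 CPM at 24 h. The summed level of 6 neuronal markers was 9717 to 11420 CPM in vehicle mice, 15581 to 18710 at 24 h and 14959 to 19999 at 48 h, and that of 6 excitatory markers was 460 to 516, 939 to 2380 and 1432 to 2166 CPM in the same order. The sum of 6 inhibitory markers overlapped between groups, at 1371 to 2741, 1706 to 2457 and 1755 to 2697 CPM. Within the excitatory list, 1 marker went the other way: Slc17a7, the vesicular glutamate transporter of cortical excitatory neurons, was at 129 to 171, 57.7 to 110 and 62.9 to 93.5 CPM. Htr2a, the gene of the serotonin 2A receptor, was likewise lower, at 122 to 143 CPM with vehicle beside 41.4 to 93.3 and 46.2 to 102 CPM. Glial sums overlapped between vehicle and both of these groups: for 8 astrocyte markers they were 781 to 849, 840 to 1194 and 680 to 1188 CPM, for 8 oligodendrocyte markers 181 to 399, 172 to 262 and 197 to 262 CPM, and for 8 microglial markers 148 to 180, 84.0 to 170 and 103 to 151 CPM. The 6 markers of oligodendrocyte precursors summed to at most 40.0 CPM in any mouse. The 7 endothelial markers summed to 1.79 to 4.55, 4.02 to 18.1 and 1.01 to 7.26 CPM, and Cldn5 had no counts in vehicle mice. The share of counts on an 18S ribosomal RNA pseudogene feature was 0.00694% to 0.0101% in vehicle mice, 0.328% to 1.57% at 24 h and 0.523% to 1.66% at 48 h. Mitochondrial genes took 0.0171% to 0.0701% of counts in vehicle mice, 0.0621% to 0.101% at 24 h and 0.108% to 0.268% at 48 h, the last without overlap with vehicle. The part of these properties in the results below was not tested beyond the alternatives given with them, and in bulk nuclei fewer cells of a type and less RNA per cell cannot be told apart.

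In vehicle mice, levels were compared between genes per length, as CPM per kilobase of exon (RPKM). Dusp14 was highest at 75.5 RPKM ± 18.1, followed by Dusp1 at 38.5 ± 23.8 and Dusp6 at 37.4 ± 13.0 (SD, n = 4). Neighbouring genes in this order overlapped among mice, but the lowest Dusp6 mouse (25.3 RPKM) lay above the highest Spred1 mouse (6.81). Spred1 was at 5.59 RPKM ± 0.866, Spry2 at 5.09 ± 0.986, Spred2 at 2.12 ± 0.127 and Dusp3 at 1.73 ± 0.261 (SD, n = 4). Within these, Spred1 and Spry2 overlapped, Spred2 and Dusp3 overlapped, and Spry2 did not overlap Spred2. Dusp5, Dusp4 and Spry4 were lowest, at 0.353, 0.288 and 0.187 RPKM, and their mice overlapped. The order differed after DOI: at 48 h Spry2 had the highest mean, 56.7 RPKM ± 12.2, beside 46.4 ± 9.66 for Dusp14, 17.9 ± 6.79 for Dusp6 and 12.9 ± 3.47 for Dusp1 (SD, n = 4). The Spry2 mice (44.5 to 73.6 RPKM) overlapped the Dusp14 mice (41.2 to 60.9 RPKM) there.

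**Figure D1:**
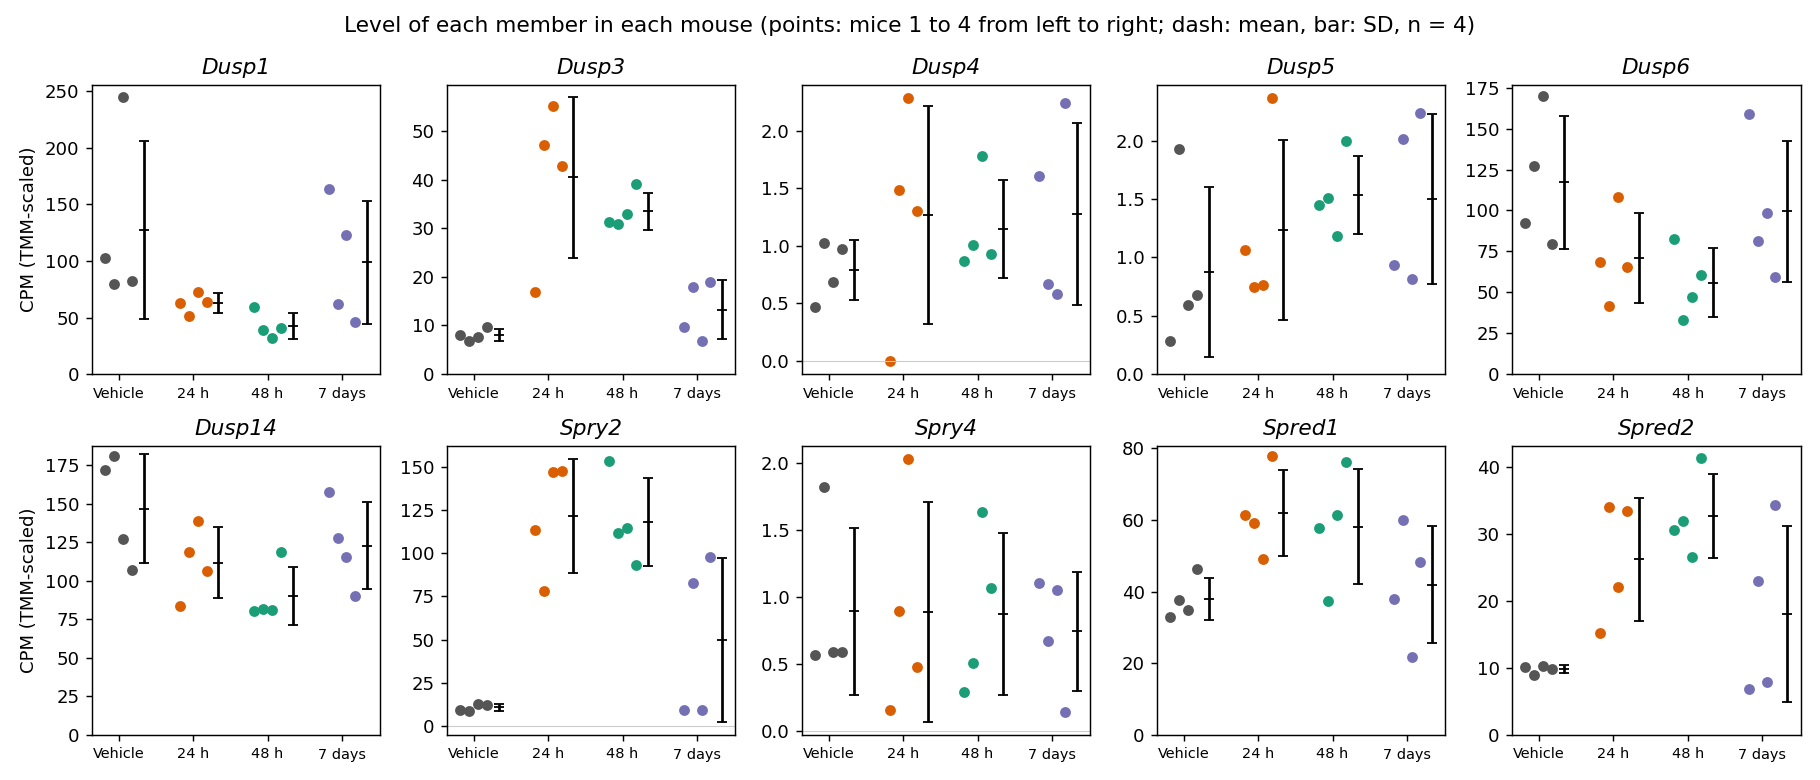
CPM of each of the 10 genes (y axis, TMM-scaled, a scale of its own in each panel) in each of the 4 mice of every group (x axis); the dash and bar are the mean and SD. Spry2 lay at 8.41 to 12.6 CPM in vehicle mice and 78.3 to 148 CPM at 24 h, while its 7-day mice split between 8.89 to 9.22 and 82.9 to 97.9 CPM.

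At 24 h, against vehicle, 3 of the 9 tested members rose and none of the other 6 passed the threshold (edgeR's quasi-likelihood test, Benjamini-Hochberg adjusted p below 0.05 over all genes). The comparison asks which of these genes differed a day after the drug. Spry2, Dusp3 and Spred2 were the members that rose. Of all genes tested 24.2% were called, 13.8% higher and 10.4% lower, so 3 of 9 is close to the share over all genes. The median log2 fold change was 0.69 over the 9 members and 0.03 over all genes; the middle member is Dusp4, which had few counts (SE 0.75), and 3 of the 9 had negative values. With total counts only, without scaling factors, the median over all genes was 0.14, the calls over all genes were 67.3% higher in place of 57.0%, and 4 members were called, all higher, Spred1 being the addition.

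At 48 h, against vehicle, 6 of the 9 tested members passed, 3 higher and 3 lower, where 30.1% of all genes were called, 16.8% higher and 13.3% lower. Spry2, Dusp3 and Spred2 were higher again, and Dusp1, Dusp6 and Dusp14 were lower. Both comparisons share the vehicle mice, so the values at 24 h and 48 h are given side by side and not as support for each other. The 4 mice of a DOI group did not overlap the 4 vehicle mice in 5 members at 24 h, against 35.7% of all genes, and in 4 members at 48 h, against 38.1%. When all 4 groups were tested together, Dusp1, Dusp3, Spry2 and Spred2 were called, 4 of 9 members beside 18.8% of all genes.

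**Figure D2:**
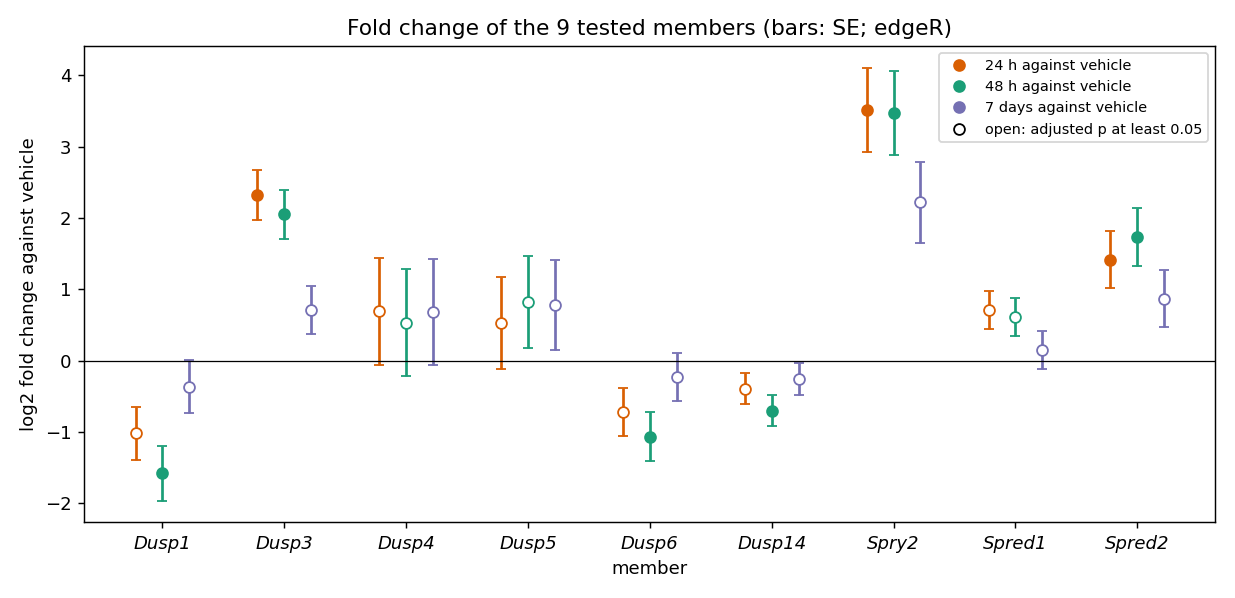
Log2 fold change against vehicle (y axis) of the 9 tested members (x axis) at 24 h, 48 h and 7 days; bars are the SE, and filled points passed the threshold. Spry2 was highest at 3.52 and 3.47, and Dusp1 was lowest at 48 h at -1.58.

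Spry2 encodes a Sprouty protein, a membrane-associated inhibitor of growth factor signalling upstream of RAF (ENSMUSG00000022114, chromosome 14, 105891947 to 105896819, minus strand, GRCm38). Vehicle mice 1 to 4 had 9.35, 8.41, 12.6 and 12.2 CPM, the 24 h mice 114, 78.3, 147 and 148 CPM and the 48 h mice 154, 112, 115 and 92.9 CPM. All 8 mice at 24 h and 48 h lay above all vehicle mice, and the lowest of them was 78.3 CPM. On the log2 scale the difference was 3.52 (SE 0.59, edgeR adjusted p 0.00199) at 24 h and 3.47 (SE 0.59, edgeR adjusted p 0.00162) at 48 h, or 11.4-fold and 11.1-fold. It passed at both times in all 22 alternatives other than the 18S covariate, with log2 fold changes from 3.31 to 3.67 at 24 h and 3.30 to 3.57 at 48 h.

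Dusp3 encodes a small phosphatase of ERK and JNK with no MAP kinase binding domain (ENSMUSG00000003518, chromosome 11, 101971143 to 101987013, minus strand). In vehicle mice 1 to 4 the level was 8.12, 6.82, 7.66 and 9.73 CPM, in the 24 h mice 16.9, 47.0, 55.1 and 42.7 CPM and in the 48 h mice 31.3, 30.8, 32.9 and 39.1 CPM. The groups did not overlap, although 24 h mouse 1 lay well below the other 3 of its group. That mouse also had the lowest 18S share at 24 h, 0.328%, and the lowest excitatory marker sum, 939 CPM. Its Spred2 level (15.2 CPM) was the lowest of the group too, while its Spry2 level (114 CPM) was above that of mouse 2. Whether these values are related was not tested. Dusp3 had a log2 fold change of 2.32 (SE 0.34, edgeR adjusted p 0.00153) at 24 h and 2.05 (SE 0.34, edgeR adjusted p 0.00162) at 48 h. Exons of Dusp3 share bases with Gm20659 on the other strand, which had 0 counts; reads on shared bases were left out of both. Leaving out 24 h mouse 1 and 48 h mouse 1, which detected the fewest genes in their groups, gave 2.58 and 2.09. Dusp3 had the smallest p of the members in the test over 4 groups (adjusted p 0.00287, edgeR).

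Spred2 encodes a Spred protein, which binds neurofibromin and brings it to RAS at the membrane (ENSMUSG00000045671, chromosome 11, 19924375 to 20024026, plus strand). Vehicle mice 1 to 4 had 10.1, 8.98, 10.3 and 9.83 CPM, the 24 h mice 15.2, 34.1, 22.1 and 33.4 CPM and the 48 h mice 30.6, 31.97, 26.5 and 41.3 CPM. The vehicle mice were close together and below every 24 h and 48 h mouse. Against vehicle the log2 fold change was 1.42 (SE 0.40, edgeR adjusted p 0.0181) at 24 h and 1.73 (SE 0.41, edgeR adjusted p 0.00576) at 48 h. The 24 h call was lost when vehicle mouse 2 (1.36, edgeR adjusted p 0.0521), 24 h mouse 2 (1.26, 0.0508) or 24 h mouse 4 (1.27, 0.0570) was left out.

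Spred1, of the same family, is the gene mutated in Legius syndrome (ENSMUSG00000027351, chromosome 2, 117121374 to 117182279, plus strand). Levels were 33.0, 37.8, 34.8 and 46.2 CPM in vehicle mice 1 to 4, with 61.2, 59.2, 49.2 and 77.9 CPM in the 24 h mice and 57.8, 37.3, 61.2 and 76.0 CPM in the 48 h mice. The mice did not overlap vehicle at 24 h, and 48 h mouse 2 lay within the vehicle range. Its log2 fold changes of 0.71 (SE 0.27, edgeR adjusted p 0.0606) and 0.62 (SE 0.27, edgeR adjusted p 0.0866) missed the threshold; of 22 alternatives without the 18S covariate, 5 at 24 h and 4 at 48 h passed it.

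Spry4, another Sprouty gene (ENSMUSG00000024427, chromosome 18, 38586247 to 38601415, minus strand), had 1 to 16 counts per mouse and was not tested. Group means of Spry4 were 0.890 (vehicle), 0.887 (24 h), 0.872 (48 h) and 0.741 CPM (7 days). A difference between groups was not detectable at this depth.

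Dusp1 encodes a nuclear phosphatase with a preference for p38 and JNK and is a known immediate early gene (ENSMUSG00000024190, chromosome 17, 26505590 to 26562128, minus strand). Vehicle mice 1 to 4 had 103, 79.7, 245 and 82.4 CPM, the 24 h mice 62.8, 51.6, 72.9 and 63.9 CPM and the 48 h mice 59.0, 38.7, 32.2 and 40.5 CPM. All 24 h and 48 h mice lay below all vehicle mice, of which mouse 3 was far above the other 3. The log2 fold change was -1.02 (SE 0.37, edgeR adjusted p 0.0537) at 24 h and -1.58 (SE 0.38, edgeR adjusted p 0.00658) at 48 h, so that it fell 2.99-fold at 48 h. Without vehicle mouse 3 the values were -0.49 (edgeR adjusted p 0.295) and -1.05, the latter still past the threshold; the 24 h value passed in 9 of 22 alternatives without the 18S covariate, among them DESeq2 (adjusted p 0.0311), limma voom (0.0124) and leaving out vehicle mouse 2 or 4 (edgeR adjusted p 0.0497 and 0.0482). Exons of Dusp1 share bases with Ergic1 on the other strand, and the counting used no strand, so its level is uncertain to that extent.

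Dusp6 encodes the cytoplasmic phosphatase of ERK, a widely used readout of ERK activity (ENSMUSG00000019960, chromosome 10, 99263231 to 99267489, plus strand). In vehicle mice 1 to 4 the level was 92.2, 127, 170 and 79.3 CPM, in the 24 h mice 68.7, 41.7, 108 and 65.2 CPM and in the 48 h mice 82.9, 32.8, 47.3 and 60.8 CPM. The groups overlapped at both times, through 24 h mouse 3 and 48 h mouse 1. On the log2 scale the difference was -0.72 (SE 0.34, edgeR adjusted p 0.123) at 24 h and -1.07 (SE 0.34, edgeR adjusted p 0.0262) at 48 h. The 48 h call was lost without vehicle mouse 2 (-1.04, edgeR adjusted p 0.0598), vehicle mouse 3 (-0.83, 0.0923), 48 h mouse 2 (-0.88, 0.0844) or 48 h mouse 3 (-0.997, 0.0706).

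Dusp14 encodes a small atypical phosphatase (ENSMUSG00000018648, chromosome 11, 84048041 to 84069261, minus strand). Vehicle mice 1 to 4 had 172, 181, 127 and 107 CPM, the 24 h mice 83.3, 118, 139 and 106 CPM and the 48 h mice 80.1, 81.4, 81.2 and 118 CPM. Mice 1 to 3 at 48 h lay below the vehicle mice and mouse 4 within their range. This gave a log2 fold change of -0.39 (SE 0.22, edgeR adjusted p 0.196) at 24 h and -0.70 (SE 0.22, edgeR adjusted p 0.0244) at 48 h. The 48 h call was lost without vehicle mouse 1 (-0.61, edgeR adjusted p 0.0777) or 2 (-0.60, 0.0818) and without 48 h mouse 1 (-0.66, 0.0595), 2 (-0.65, 0.0683) or 3 (-0.66, 0.0660). It was also lost when 24 h mouse 1 and 48 h mouse 1 were left out together (-0.64, edgeR adjusted p 0.0515), so that 16 of 22 alternatives without the 18S covariate kept it.

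Dusp4 and Dusp5, both nuclear phosphatases and Dusp5 specific to ERK, were close to the floor. Dusp4 (ENSMUSG00000031530, chromosome 8, 34807297 to 34819894, plus strand) had 0 to 19 counts per mouse; the 0 was in 24 h mouse 1, where it allows up to 0.457 CPM. Dusp5 (ENSMUSG00000034765, chromosome 19, 53529109 to 53542431, plus strand) had 3 to 20 counts per mouse, and its exons share bases with AC137853.2 on the other strand. Vehicle means were 0.789 CPM for Dusp4 and 0.872 CPM for Dusp5, beside 1.27 and 1.23 CPM after 24 h and 1.15 and 1.53 CPM after 48 h. Neither passed in any comparison, with SE of 0.63 to 0.76 on the log2 scale, so differences of that size were not detectable.

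The libraries of a mouse gave similar values. Over the 7 members with at least 50 counts in every mouse, the median absolute log2 ratio of the 2 libraries was 0.06 (Dusp14) to 0.21 (Dusp3), and the largest in any mouse was 0.75 (Spry2), below its log2 fold changes at 24 h and 48 h.

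Compared directly, 48 h and 24 h differed in none of the 9 members by edgeR, DESeq2 or limma voom (0 of 9 at an unadjusted p below 0.05), and 0% of all genes were called. The difference was largest for Dusp1, at -0.56 (SE 0.38), and was -0.04 (SE 0.53) for Spry2, -0.27 (SE 0.33) for Dusp3 and 0.32 (SE 0.39) for Spred2. A p past the threshold was not reached in any member, which does not show that the 2 times are alike.

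At 7 days 0 of 9 members passed against vehicle by edgeR, as did 0% of all genes. An unadjusted p below 0.05 (edgeR) was found in 3 members and in 3012 of the 17941 genes. DESeq2 called 1 member and limma voom 0. Over all genes DESeq2 called 796 (734 higher and 62 lower) and limma voom 0, and edgeR called 1342 without 7-day mouse 1, 1160 without mouse 3 and 0 without mouse 2 or mouse 4. The comparison asks whether differences lasted a week. Against vehicle the log2 fold change was 2.22 (SE 0.57, edgeR adjusted p 0.0974) for Spry2, 0.87 (SE 0.40, 0.281) for Spred2 and 0.71 (SE 0.34, 0.295) for Dusp3. In 0 of 9 members were the 7-day and vehicle mice apart, beside 5.85% of all genes. Against 48 h, 0 of 9 members and 0% of all genes passed by edgeR. An unadjusted p below 0.05 (edgeR) was reached by 5 members and by 2959 of the 17941 genes. DESeq2 called 2 members and 434 genes, and limma voom 0 members and 0 genes. The largest differences there were -1.34 (SE 0.33, edgeR adjusted p 0.130) for Dusp3, -1.25 (SE 0.54, 0.258) for Spry2 and 1.21 (SE 0.38, 0.165) for Dusp1.

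The 4 mice at 7 days did not share 1 level of Spry2: they were at 8.89, 82.9, 9.22 and 97.9 CPM. Mice 1 and 3 lay within the vehicle range and mice 2 and 4 near the lower 24 h mice. Dusp3 was at 9.65, 17.8, 6.77 and 18.9 CPM and Spred2 at 6.86, 23.0, 7.82 and 34.3 CPM in the same order. In both, mice 2 and 4 were again above all vehicle mice. Dusp1 was at 164, 62.0, 123 and 46.2 CPM, with mice 2 and 4 below all vehicle mice. Spred1 was at 37.9, 60.0, 21.6 and 48.3 CPM, Dusp6 at 159, 81.4, 98.2 and 59.0 CPM and Dusp14 at 158, 128, 115 and 89.8 CPM. For Dusp6 and Dusp14, mouse 4 was lowest and mouse 1 highest.

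Other measures also set mice 2 and 4 above mice 1 and 3. In mice 1 to 4 the 18S share was 0.00834%, 0.633%, 0.00607% and 0.474%, the sum of neuronal markers 10173, 16349, 10117 and 16204 CPM, and that of excitatory markers 467, 1375, 428 and 1234 CPM. The sum of 8 striatal neuron markers was 598, 1721, 364 and 1164 CPM, beside 244 to 416 CPM in vehicle mice. The mitochondrial share was 0.0413%, 0.130%, 0.0210% and 0.114%. Apart from the 18S share, which was fitted as a covariate, the part of these measures in the levels of the members was not tested. Leaving out mouse 1 or mouse 3 gave Spry2 a log2 fold change of 2.58 (edgeR adjusted p 0.00639) or 2.58 (0.00952), past the threshold, and leaving out mouse 2 or mouse 4 gave 1.85 (0.380) or 1.67 (0.369).

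**Figure D3:**
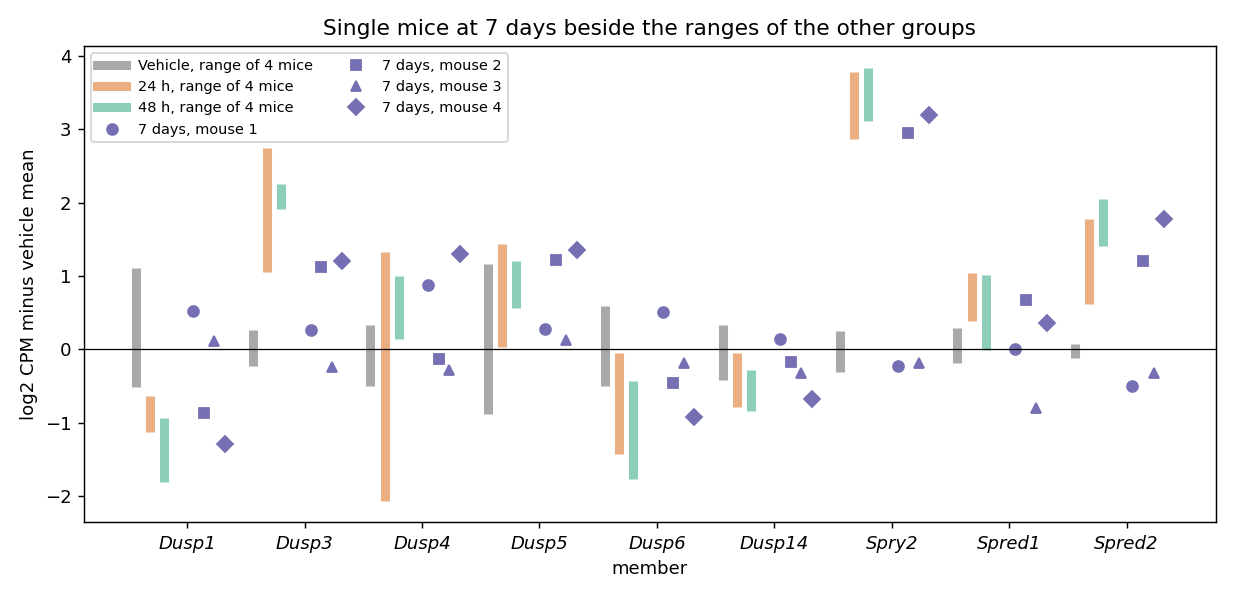
Log2 CPM minus the vehicle mean (y axis) for the 9 tested members (x axis): bars span the 4 vehicle, 24 h and 48 h mice, and symbols are the single mice at 7 days. For Spry2, mice 2 and 4 stood at 2.96 and 3.20 and mice 1 and 3 at -0.23 and -0.18.

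The share of the 18S feature was higher in all 24 h and 48 h mice than in all vehicle mice, as were Spry2, Dusp3 and Spred2. With its log2 value as a covariate, 0 of 9 members passed at 24 h, 48 h or 7 days, and 0 of the 17941 genes in any of these comparisons (870, 685 and 603 at an unadjusted p below 0.05, by edgeR; no other tool was run with this covariate). The log2 fold change of Spry2 was then 0.47 (SE 0.48) at 24 h and 0.22 (SE 0.50) at 48 h, that of Dusp3 0.92 (SE 0.45) and 0.61 (SE 0.46), and that of Spred2 -0.69 (SE 0.41) and -0.42 (SE 0.41), with the opposite sign. Dusp1 was at 0.25, also with the sign turned, and -0.23. Group explained 75.1% of the variance of this covariate, so the group difference and the share cannot be told apart in this design.

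**Figure D4:**
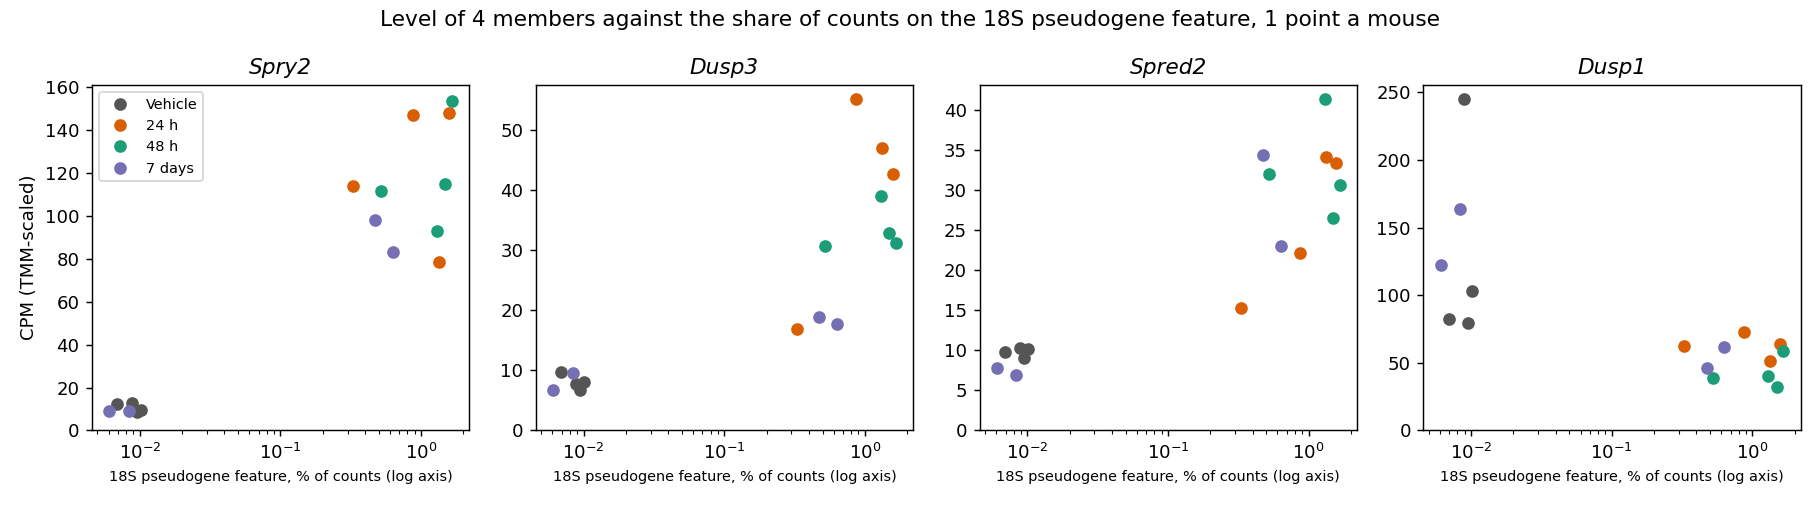
CPM of Spry2, Dusp3, Spred2 and Dusp1 (y axes) against the share of counts on the 18S pseudogene feature (x axis, log scale), 1 point a mouse, coloured by group. On the x axis vehicle mice lie at 0.00694% to 0.0101%, and 7-day mice 2 and 4, at 0.633% and 0.474%, lie within the range of the 24 h and 48 h mice. This is said of the x axis only.

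The 5 genes whose log2 CPM followed Dusp3 most closely over the 16 mice, among 10874 genes whose log2 CPM averaged 3 or more, were Abca2 (Pearson r 0.97), Phyhip (0.97), Crtc1 (0.96), Prr36 (0.96) and Ppm1h (0.95). This is a description with no test, since the mice fall into clusters and share their scaling. Ppm1h, for example, averaged 42.0 CPM with vehicle, and 199.7, 200.2 and 90.6 CPM in the 24 h, 48 h and 7-day mice.

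Around the members, 90 genes in 9 lists of the same pathway were read, of which 84 were tested. At 24 h 14 were higher and 9 lower, 23 of 84 beside 24.2% of all genes, and at 48 h 15 were higher and 12 lower, 27 of 84 beside 30.1%. At 7 days none passed by edgeR (12 at an unadjusted p below 0.05, 3 by DESeq2 and 0 by limma voom). These shares are near those over all genes. The median log2 fold change of the 84 was 0.12 at 24 h and 0.10 at 48 h.

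Of the other MAP kinase phosphatases, 1 of 5 tested passed, Dusp8, a phosphatase of JNK and p38. Dusp8 averaged 98.1 CPM ± 15.4 in vehicle mice, 160.0 ± 54.2 at 24 h and 157 ± 28.1 at 48 h (SD, n = 4), a log2 fold change of 0.71 (SE 0.23, edgeR adjusted p 0.0342) and 0.68 (SE 0.23, 0.0353). Among 9 other dual-specificity phosphatases, 2 passed at each time: Dusp11, which acts on RNA, rose by 1.25 and 1.29 (edgeR adjusted p 0.00488 and 0.00323) and Dusp26 fell by 1.20 and 1.27 (0.0490 and 0.0329) on the log2 scale. Thus 1 member of each list rose, and most did not pass.

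Other feedback inhibitors of receptor tyrosine kinases held 1 tested gene of the same families as the members, Spred3. It rose from 14.0 CPM ± 1.32 in vehicle mice to 72.5 ± 21.6 at 24 h and 66.0 ± 17.8 at 48 h (SD, n = 4), a log2 fold change of 2.37 (SE 0.46, edgeR adjusted p 0.00329) and 2.23 (SE 0.46, 0.00301). Nf1, which encodes neurofibromin, the RAS GTPase activator that Spred proteins bind, rose by 1.09 and 1.44 on the log2 scale (edgeR adjusted p 0.0161 and 0.00353). Errfi1, an inhibitor of the EGF receptor, fell by 1.17 and 1.31 (0.00532 and 0.00251). These were 3 of 6 tested at each time; Spry1, with 97 counts over all mice, did not pass the filter, and Spry3 had no matched ID.

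Upstream, 2 of 12 receptor tyrosine kinases passed at 24 h and 1 at 48 h. Igf1r, the receptor of insulin-like growth factor, rose by 1.08 and 1.28 (edgeR adjusted p 0.00366 and 0.00162), and Fgfr3, a receptor of fibroblast growth factors, rose by 0.77 at 24 h (0.0389). Of 10 RAS adaptors and exchange factors, 2 were higher at 24 h and 3 at 48 h. Rasgrf2, a calcium-responsive exchange factor, rose by 1.02 and 1.17 (edgeR adjusted p 0.00533 and 0.00235), and Sos1, the exchange factor bound by the adaptor GRB2, by 0.75 and 0.97 (0.0455 and 0.0127).

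The RAS-RAF-MEK-ERK list moved in both directions, with 3 higher and 3 lower of 12 at 24 h and 3 higher and 6 lower at 48 h, and a median log2 fold change of -0.37 and -0.30. The scaffold gene Ksr2 rose by 1.72 and 1.98 (edgeR adjusted p 0.00329 and 0.00162) and Hras by 0.92 and 1.20 (0.0217 and 0.00505). Araf, a RAF kinase, fell by 0.54 at 48 h (edgeR adjusted p 0.0140).

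Of 10 JNK and p38 kinases, 1 was higher and 3 lower at 24 h, and 2 were higher and 3 lower at 48 h. Map2k7, the kinase that activates JNK, rose by 0.83 and 1.18 (edgeR adjusted p 0.0474 and 0.00798) and Map2k6, which activates p38, by 0.83 at 48 h (0.0378). Mapk14, p38 alpha, fell by 1.13 and 0.97 (0.0155 and 0.0252); Mapk9, which encodes JNK2, fell by 0.54 and 0.47 (0.0254 and 0.0369) and Mapk11, p38 beta, by 0.62 and 0.76 (0.04999 and 0.0186).

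Downstream, 3 of 11 kinases and factors activated by ERK passed at each time. Mknk2, a kinase of the translation factor eIF4E, rose by 1.28 and 1.11 (edgeR adjusted p 0.0188 and 0.0308), and Elk4, a partner of serum response factor, by 0.73 and 0.77 (0.0355 and 0.0241). Rps6ka1, which encodes RSK1, fell from 31.3 CPM ± 2.81 in vehicle mice to 6.34 ± 2.27 at 24 h and 4.67 ± 2.62 at 48 h (SD, n = 4; edgeR adjusted p 0.0168 and 0.00655). Of ERK transcriptional targets, 0 of 9 tested passed by edgeR at 24 h or 48 h, with 1 at an unadjusted p below 0.05 at each time; DESeq2 called 1 and 0, and limma voom 2 and 1. Their median log2 fold change was 0.25 and 0.23.

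**Figure D5:**
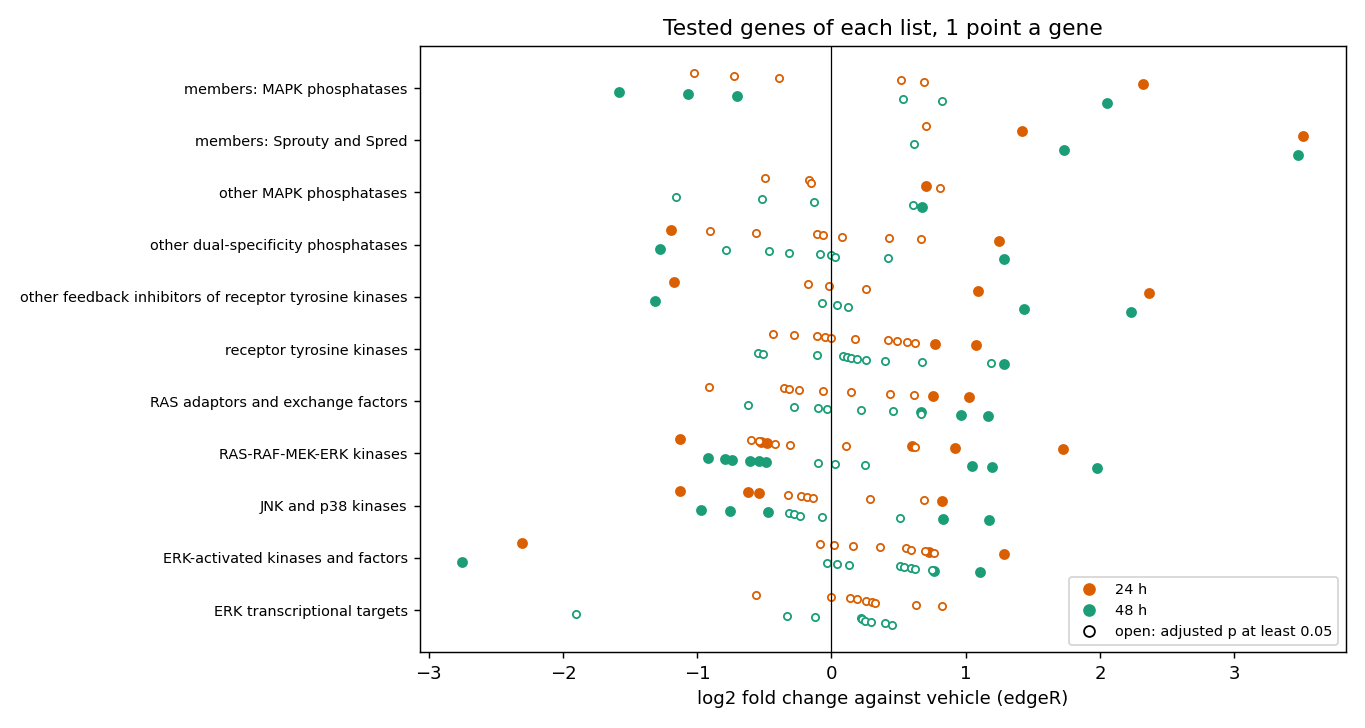
Log2 fold change against vehicle (x axis) of each tested gene in the 2 lists of members and 9 other lists (y axis) at 24 h and 48 h; filled points passed the threshold. The points of Spry2 (3.52 and 3.47) are farthest to the right, and Rps6ka1 (-2.30 and -2.75) is farthest to the left.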

How the data were processed

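Nuclear RNA of 16 mice was measured in 32 libraries. The authors deposited whole-number counts, made with featureCounts 2.0.0 from exons grouped by Ensembl gene ID (GRCm38), per the file headers. No option for strand, multi-mapping or overlap was set, so reads on shared exon bases and on several copies were left out. The aligner used for RNA is not given in the sources used here. Headers carry mouse number 6 where the labels have 24 h mouse 1, 7 days mouse 2 or 48 h mouse 2; the labels' numbers were used. H3K27ac samples were not analysed here.

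Libraries of a mouse were not copies (chi-square per degree of freedom 1.39 to 2.90) and were summed. edgeR 4.0.16 (R 4.3.3) was fitted over all 4 groups: filterByExpr, TMM, quasi-likelihood test, Benjamini-Hochberg adjustment over 17941 genes, threshold 0.05. CPM uses TMM factors; log2 CPM used a prior count of 2; the SE comes from the fold change and F. The fit was tested on simulated data. Replicates are different mice. Floors cover counting error only, as there were no molecular identifiers. Members, lists and alternatives were chosen with earlier results of these data known. All 10 members are named; of each other list at most 2 called genes per direction and time (smallest p) are named; genes alike in pattern were taken for the member with the smallest p over 4 groups. Alternatives were 13 planned, with DESeq2 1.42.0 and limma 3.58.1 among them, and 3 chosen after seeing the data. Promoter windows are RefSeq, GRCm38.p6. Some genes that this rule would name are not reported here.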

Additional observations from a re-analysis of the deposited data

Results flagged for a closer look

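Among 40 groups of 4 mice (10 members in 4 groups), 4 held a mouse whose gap to the nearest other mouse was past Dixon's critical share of the range of its group; chance gives about 1 in 20 groups. Dusp1 was at 245 CPM in vehicle mouse 3, with the next mouse at 103 CPM. Dusp14 was at 118 CPM in 48 h mouse 4, with the next at 81.4 CPM. Both other values rest on few counts: Spry4 was at 1.82 CPM in vehicle mouse 2, with the next at 0.589 CPM, and Dusp4 at 1.78 CPM in 48 h mouse 3, with the next at 1.00 CPM.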

How the results depend on the processing

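The members called at 24 h, 48 h, 7 days and over 4 groups numbered 3, 6, 0 and 4, and with the 18S share as a covariate 0 at each. At 24 h they were 5 with DESeq2, with no filter, with only the groups compared and without the 7 days group, and 6 with limma voom. Calls over all genes were 4346 of 17941 as reported. In the order just given they were 5413 of 17941, 4746 of 36503, 6063 of 16512, 5945 of 17308 and 7236 of 17941. The share of genes called was thus lower than reported with no filter and higher in the other settings. At 7 days 1 member was called with DESeq2 (796 of 17941 genes) and 1 with no filter (958 of 36503 genes). At 7 days against 48 h, 2 members were called with DESeq2 (434 of 17941 genes) and 4 with no filter (665 of 36503 genes). Leaving out each mouse gave 2 to 4 members at 24 h, 4 to 6 members at 48 h, 0 to 1 at 7 days, 0 to 0 at 48 h against 24 h, 0 to 2 at 7 days against 48 h, and 2 to 5 over 4 groups (2 without vehicle mouse 3). Of the other listed genes, 23, 27 and 0 were called at 24 h, 48 h and 7 days: 40 at 24 h with limma voom, 2 and 3 at 7 days with no filter and with DESeq2, 0 at 24 h and 48 h with the 18S covariate, and 11 to 18, 17 to 23 and 0 to 6 with a mouse left out. The mouse number as a replicate block gave 15 of these at 24 h and left the counts of members as they were; mice of a number are different animals, 3 of 16 correlated best with their own number, and same-numbered mice had correlations of -0.28 to 0.24, so the labels' numbers were not taken as pairs; mouse number 6 of the headers was not tested as a pairing.

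With the 18S covariate the sign turned, at 24 h and 48 h, for Spred2 (-0.69 and -0.42), Spred3 (-0.036 and -0.20), Nf1 (-0.26 and -0.011), Sos1 (-0.19 and -0.048), Map2k7 (-0.45 and -0.16), Mapk11 (0.25 and 0.15), Mapk14 (0.20 and 0.43) and Dusp26 (0.53 and 0.55), for Rps6ka1 at 24 h (0.22) and for Mknk2 at 48 h (-0.017), none past the threshold; that of Dusp1, not called at 24 h, also turned there (0.25). The cause of the other shifts was not tested. Depth limits Dusp4, Dusp5 and Spry4.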
